A study of Mus musculus with 4 samples.

Results

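The miR-99 and miR-100 family of mouse has 3 guide strands, mmu-miR-99a-5p, mmu-miR-99b-5p and mmu-miR-100-5p, and these are 3 of the 1881 miRNAs on the array. They were found by their exact names among the non-control probes of every array. The family was selected on its signals by day in these same arrays, so its values are given as a description and carry no test. RNA came from the exosome fraction that ultracentrifugation pelleted out of medium conditioned by 3T3-L1, mouse preadipocytes that resemble fibroblasts and accumulate fat after hormonal induction. All cells were grown with serum depleted of exosomes. The D0 group was collected at the change from growth medium to differentiation medium 1, which contains 1-methyl-3-isobutylxanthine, dexamethasone and insulin, and the D4, D12 and D16 groups 4, 12 and 16 days later, after a switch to differentiation medium 2, which keeps insulin alone of those agents. Each day was read on 1 single-colour array of mixed RNA, from 2 independent experiments by the methods and 3 by the sample descriptions, and there is no untreated culture of the same age. No day has a second array, so changes over time lack a replicate check and a p-value, and time, differentiation and array cannot be told apart.

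A miRNA guide strand is loaded into an Argonaute protein and finds messenger RNAs mainly through bases 2 to 8 from its 5′ end, the seed. Targets described for the miR-99 family include the kinase mTOR and the insulin-like growth factor 1 receptor, both of which take part in growth and insulin signalling. The family is old, and its genes lie in clusters with members of the let-7 and miR-125 families, which have other seeds.

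The 3 guides are shown first because they share the seed, in capitals, and differ outside it. The sequences and positions are those of RefSeq on GRCm38.p6, and all 3 lie on the plus strand.

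mmu-miR-99a-5p: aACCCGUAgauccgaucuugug
mmu-miR-100-5p: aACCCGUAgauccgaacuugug
mmu-miR-99b-5p: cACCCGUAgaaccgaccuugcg

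No other mature miRNA in the RefSeq table had the seed ACCCGUA. Counted from 1 at the 5′ end, mmu-miR-100-5p differed from mmu-miR-99a-5p at 1 of 22 bases, by U16A. mmu-miR-99b-5p differed from mmu-miR-99a-5p at 4 of 22 bases, by A1C, U11A, U16C and U21C. How far the probes tell sequences this close apart was not measured on these arrays. The mature mmu-miR-99a-5p lies at chr16:77598940-77598961, mmu-miR-99b-5p at chr17:17830194-17830215 and mmu-miR-100-5p at chr9:41531437-41531458. By the RefSeq gene table of the same build, Mir100 lies within the span of the noncoding host gene Mir100hg, Mir99b within that of the coding gene Spaca6, and Mir99a beyond the listed end of Mir99ahg. The table gives gene spans alone, so exon or intron was not assigned.

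The hairpins of Mir99a and Mir100 are shown for the place of their arms, which are in capitals with the guide first and the passenger second. They span chr16:77598936-77599000 and chr9:41531425-41531504.

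Mir99a: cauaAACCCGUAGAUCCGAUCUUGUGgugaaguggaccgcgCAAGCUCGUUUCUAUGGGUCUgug
Mir100: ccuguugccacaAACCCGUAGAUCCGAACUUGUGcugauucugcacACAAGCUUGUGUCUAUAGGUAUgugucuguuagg

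Without scaling between arrays, all 3 guides were brighter on the later days than at D0, but they did not keep the same course. With scaling, the D12/D0 ratio of mmu-miR-99b-5p was as low as 1.27 and the bound of mmu-miR-100-5p as low as 1.51, while mmu-miR-99a-5p stayed at 17.6 or more. mmu-miR-99a-5p and mmu-miR-100-5p were brightest at D12, while mmu-miR-99b-5p was brightest at D4 and had 0.467 of that signal left at D12. From D12 to D16 all 3 had similar ratios below 1. The values below are total gene signals, in arbitrary intensity units summed by the scanner software over the detected probes of a miRNA, with the technical error of the software in parentheses, which covers variation within an array alone. The more brightly labelled of 2 miRNAs need not be the more abundant, so no level is compared between members.

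The signal of mmu-miR-99a-5p began at 3.00 (0.879) on D0, reached 75.9 (6.47) on D4 and 174 (14.7) on D12, and was 109 (9.38) on D16. The days ranked D12, D16, D4 and D0, and no neighbours in this order had overlapping ranges of 1 technical error. Relative to D0, the D4 signal was 25.3 ± 7.71 times as high (technical error), the D12 signal 57.8 ± 17.6 times and the D16 signal 36.5 ± 11.1 times. In each of these ratios mmu-miR-99a-5p stood in place 2 from the top, among 317, 297 and 289 miRNAs detected on both days.

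The signal of mmu-miR-99b-5p began at 4.12 (0.919) on D0, reached 36.9 (3.27) on D4, and was down to 17.2 (2.05) on D12 and 11.8 (1.53) on D16. Its order was D4, D12, D16 and D0, again with no overlap of 1 technical error between neighbours. Relative to D0, it was 8.94 ± 2.14 times as high on D4, 4.18 ± 1.06 times on D12 and 2.86 ± 0.737 times on D16. These placed it at 19 of 317, 52 of 297 and 56 of 289.

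mmu-miR-100-5p was not detected at D0, where 3 times the error summed over its probes set an upper bound of 4.93. On D4 its signal was 10.7 (1.61), on D12 it was 24.5 (2.63) and on D16 16.3 (1.86). The order of the days was therefore the one seen for mmu-miR-99a-5p. Set against the bound of 4.93 at D0, it was at least 2.18-fold higher on D4, at least 4.97-fold higher on D12 and at least 3.31-fold higher on D16.

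**Figure D1:**
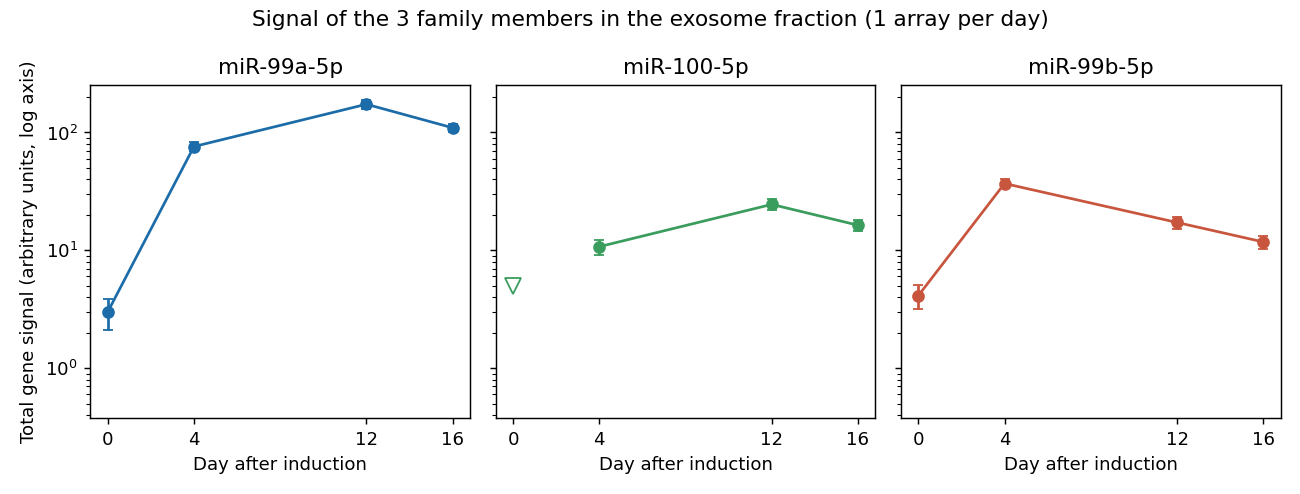
Total gene signal (arbitrary units, log axis) of the 3 members against the day after induction. Points are single arrays and bars are 1 technical error of the software. The open triangle is 3 times the error summed over the probes of mmu-miR-100-5p at D0, 4.93. Detection is judged on each probe, so detected signals can lie below that value. In these unscaled signals mmu-miR-99a-5p and mmu-miR-100-5p peak at D12, at 174 and 24.5, and mmu-miR-99b-5p peaks at D4, at 36.9. After scaling to the 75th percentile the D16/D12 ratios of mmu-miR-99a-5p and mmu-miR-100-5p were 0.917 and 0.968, close to level.

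These ratios stand on arrays of unequal brightness. The D0 array was the dimmest, and most of the miRNAs detected on D0 and on a later day had a higher signal on the later one. The methods name no scaling step and do not state that there was none. The study lists lower ratios to D0 for mmu-miR-99a-5p on every later day than the unscaled ones here, so its ratios are on another scale. Its list of miRNAs above 2-fold at D12/D0, which also used a filter on signal intensity, holds neither mmu-miR-99b-5p nor mmu-miR-100-5p. Among all miRNAs detected on both days the median ratio was 2.47 at D4/D0, 1.91 at D12/D0 and 1.32 at D16/D0. A ratio above 2 was reached by 62.1% of them at D4/D0, 47.8% at D12/D0 and 31.1% at D16/D0. Both members with a measured ratio were above 2 in each of the 3 contrasts, and the bounds of mmu-miR-100-5p were too. Given that background, and since the rule used these signals, nothing about the family is read from this count. Scaling decided the share: among miRNAs past 2-fold at D12/D0, 93.4% were higher at D12 without scaling, 67.9% after scaling to the spike-in RNAs, 41.3% and 20.8% after scaling to the 90th and 75th percentile and 33.0% after quantile normalization. Under the same scalings the D12/D0 ratio of mmu-miR-99a-5p was between 17.6 and 33.6, whereas that of mmu-miR-99b-5p was between 1.27 and 2.43 and stayed above 2 with the spike-in RNAs alone. The 3 members together held 0.0560% of all detected signal on D0, 0.316% on D4, 0.695% on D12 and 0.629% on D16.

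The amount of RNA per vesicle, the number of vesicles and their loss during the preparation cannot be told apart in such a fraction. The D0 array had a median coefficient of variation between spots of 21.1%, against 7.19% to 8.07% on the later arrays, and all 4 arrays held 56430 spots on the same slide with none saturated. It detected 329 miRNAs, and the later arrays 380 to 426. The software also used an effective spot size of 0.6 at D0 and D16, 0.780 at D4 and 0.760 at D12, by which each total gene signal is multiplied. Unscaled ratios between days of unlike spot size therefore include this factor, and the spot signals given below do not. On the brighter probe of mmu-miR-99a-5p the D16/D12 ratio of probe signals was 0.640, while its median spot went from 527 at D12 to 435 at D16.

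A factor common to an array cancels when 2 members are compared with each other. From D0 to D12 the log2 change of mmu-miR-99a-5p exceeded that of mmu-miR-99b-5p by 3.79 ± 0.57 (technical error). The difference was already 1.5 ± 0.56 at D4 and was 3.67 ± 0.58 at D16. From D4 to D12, the contrast in which the D0 array has no part, it grew by 2.29 ± 0.28. This was the larger part by value, but the ranges of 1 technical error of the parts overlap.

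From D4 to D12 mmu-miR-99a-5p rose 2.29 ± 0.274-fold and mmu-miR-100-5p 2.28 ± 0.420-fold. mmu-miR-99b-5p had a D12/D4 ratio of 0.467 ± 0.0693. Of the 374 miRNAs detected on both days, 4.81% had a ratio above 2 and 15% a ratio below 0.5, with a median of 0.865. By total gene signal 2 of the 3 members lay in the small upper group, in places 14 and 15, and the third in the larger lower group, in place 326. On the probe detected on both days mmu-miR-100-5p had a ratio of 1.94 ± 0.363 and was no longer above 2, and neither member exceeded 2 by 2 technical errors. When only the 283 miRNAs that all 4 arrays detected were counted, 1.06% were above 2. That set leaves out mmu-miR-100-5p, and mmu-miR-99a-5p was the only member in it above 2.

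On the log2 scale the D12/D4 change of mmu-miR-99a-5p exceeded that of mmu-miR-99b-5p by 2.29 ± 0.28, and that of mmu-miR-100-5p did so by 2.29 ± 0.34. Both differences were several times their technical error. The 2 guides that differ by U16A alone had log2 changes within 0.0012 ± 0.32 of each other, an error that leaves room for a sizeable gap. The signal of mmu-miR-100-5p held 1 probe at D4 and a second one in addition at D12, whereas that of mmu-miR-99a-5p held both on each day. With the median over spots the difference was 0.34, and after normexp correction 0.60, both with mmu-miR-99a-5p higher, and after quantile normalization it was -0.04.

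**Figure D2:**
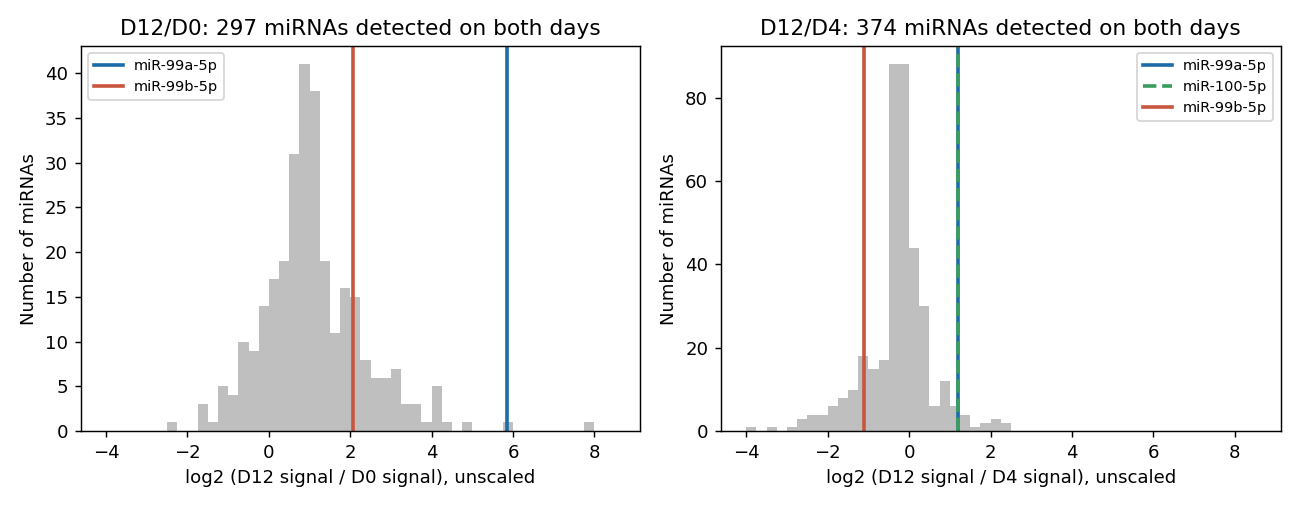
Number of miRNAs (vertical axis) by log2 ratio of unscaled signals at D12 over D0 (left, 297 miRNAs) and D12 over D4 (right, 374 miRNAs), with vertical lines at the members. On the right mmu-miR-99a-5p and mmu-miR-100-5p coincide at 1.19 in the upper tail and mmu-miR-99b-5p stands at -1.10, while mmu-miR-100-5p has no line on the left since it was not detected at D0.

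Scaling changed the sizes of these D12/D4 ratios and not their directions. Over the 75th percentile, the 90th percentile, the spike-in RNAs and quantile normalization, mmu-miR-99a-5p was between 2.42 and 2.96 and mmu-miR-100-5p between 2.42 and 3.01. mmu-miR-99b-5p was between 0.495 and 0.605, so that it passed below 0.5 with the spike-in RNAs alone. Of the miRNAs past 2-fold at D12/D4, 24.3% were higher at D12 without scaling, 27.8% with the spike-in RNAs, 51.5% with either percentile and 51.9% after quantile normalization.

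Each member was measured by 2 probes of 15 spots each, and the probes told the same course wherever both were detected. For mmu-miR-99a-5p the D12/D4 ratio was 2.35 ± 0.337 on the brighter probe and 2.02 ± 0.333 on the other. For mmu-miR-99b-5p it was 0.492 ± 0.0850 and 0.413 ± 0.121. For mmu-miR-100-5p the brighter probe gave the 1.94 above, and the other was not detected at D4.

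The spots of the brighter probe are given by day as a description. For mmu-miR-99a-5p they ran from 7.99 to 26.7 on D0 (median 13.7), from 191 to 246 on D4 (median 218), from 494 to 577 on D12 (median 527) and from 394 to 455 on D16 (median 435). No spot of one day reached those of another. At D0, 2 of its 15 spots were well above background by the software, so the denominator of its large ratios is faint.

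For mmu-miR-99b-5p the spots ran from 12.0 to 24.4 at D0 (median 20.3), from 83.1 to 102 at D4 (median 92.2), from 40.8 to 56.0 at D12 (median 46.9) and from 29.5 to 47.4 at D16 (median 37.8). The D4 spots stood above those of every other day, and D12 and D16 overlapped. At D0, 9 of its 15 spots were well above background.

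For mmu-miR-100-5p they ran from -0.754 to 8.38 at D0 (median 5.85), from 32.0 to 47.6 at D4 (median 38.6), from 67.7 to 91.5 at D12 (median 77.8) and from 51.0 to 78.3 at D16 (median 62.8). D12 and D16 overlapped, and both stood above D4, which stood above D0. Spots of the brightest probe that did not overlap, with D12 above D0, were found for 38.4% of the 297 miRNAs detected on both days. Those 297 leave out mmu-miR-100-5p. No such share was counted for other pairs of days, so nothing about the members is read from the gaps between their spots.

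**Figure D3:**
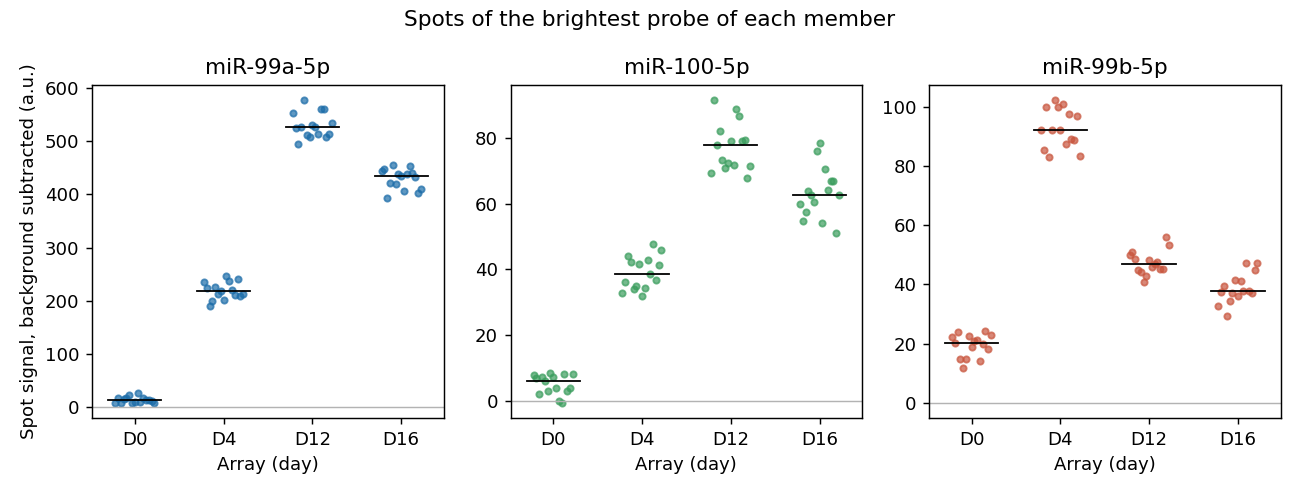
Background-subtracted signal (arbitrary units) of the 15 spots of the brightest probe of each member on each array, with the median as a black line. Spots are technical repeats on 1 array, and the vertical axes differ between members. The medians of mmu-miR-99a-5p are 13.7, 218, 527 and 435 from D0 to D16, and those of mmu-miR-99b-5p are 20.3, 92.2, 46.9 and 37.8.

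The D0 values also depended on place and on probe. On the D0 array the brightest probe of mmu-miR-99a-5p had a mean of 10.7 on the left side and 19.4 on the right side, and the same probe differed little between the sides at D12, with 532 and 526. The second probes of mmu-miR-99a-5p and mmu-miR-99b-5p were not detected at D0 and added to the later days alone. Restricted to the probe detected on both days, D12/D0 was 47.4 ± 14.7 for mmu-miR-99a-5p and 3.04 ± 0.790 for mmu-miR-99b-5p, and D16/D0 of mmu-miR-99b-5p was 1.99 ± 0.532.

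From D12 to D16 the ratio was 0.631 ± 0.0759 for mmu-miR-99a-5p, 0.684 ± 0.121 for mmu-miR-99b-5p and 0.666 ± 0.104 for mmu-miR-100-5p. All 371 miRNAs detected on both days had a median of 0.703, and 7.28% had a ratio below 0.5. None of the 3 members was among these. After scaling to the 75th percentile the members' ratios were 0.917, 0.994 and 0.968, so the shared decrease was close to that of the array as a whole. The log2 change of mmu-miR-99a-5p differed from that of mmu-miR-99b-5p by -0.12 ± 0.31 and from that of mmu-miR-100-5p by -0.08 ± 0.28.

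The opposite arm of each hairpin, the passenger strand that is usually degraded after the guide is loaded, was seldom detected. These arms are shown because 2 of them share a seed of their own, in capitals.

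mmu-miR-99a-3p: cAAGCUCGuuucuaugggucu
mmu-miR-99b-3p: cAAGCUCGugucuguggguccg
mmu-miR-100-3p: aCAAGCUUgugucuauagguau

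mmu-miR-99a-3p and mmu-miR-100-3p were not detected on any of the 4 arrays, where 3 times the error summed over their probes ran from 4.91 to 7.13. Those bounds are above the D0 signals of mmu-miR-99a-5p and mmu-miR-99b-5p, 3.00 and 4.12, so they do not show absence. mmu-miR-99b-3p was detected at 1.80 (0.584) on D4 and at 1.85 (0.547) on D12, and not at D0 or D16. Its D12/D4 ratio was 1.02 ± 0.450, too uncertain to set against that of its guide.

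The genes of the members lie next to genes of the let-7 and miR-125 families. let-7 miRNAs act on growth and cell-cycle genes such as Lin28 and Hmga2, and miR-125 is the vertebrate relative of worm lin-4. The neighbours' guides are shown with their seeds in capitals, since the close relatives among them differ by few bases.

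mmu-let-7c-5p: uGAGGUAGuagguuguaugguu
mmu-let-7a-5p: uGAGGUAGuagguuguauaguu
mmu-let-7e-5p: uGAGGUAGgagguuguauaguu
mmu-miR-125b-5p: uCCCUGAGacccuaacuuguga
mmu-miR-125a-5p: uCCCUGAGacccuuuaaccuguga

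From mmu-let-7c-5p to mmu-let-7a-5p the change was G19A, and from mmu-let-7e-5p to mmu-let-7a-5p it was G9U. On chromosome 16 of GRCm38.p6, 674 bases separate the mature arms of Mir99a and Mirlet7c-1, and 47281 those of Mir99a and Mir125b-2. On chromosome 9, 5284 bases lie between Mir100 and Mirlet7a-2 and 50447 between Mir100 and Mir125b-1. On chromosome 17 the cluster is compact, with 112 bases from Mir99b to Mirlet7e and 563 to Mir125a. The mature mmu-let-7c-5p, mmu-let-7a-5p and mmu-miR-125b-5p each come from 2 genes, so their signal cannot be assigned to a single cluster, while mmu-let-7e-5p and mmu-miR-125a-5p come from 1 gene each.

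The neighbours divided by day as the members did. mmu-let-7c-5p had signals of 15.0, 168, 274 and 175 at D0, D4, D12 and D16. mmu-miR-125b-5p had 31.9, 207, 289 and 198, and mmu-let-7a-5p had 27.7, 249, 324 and 216. Without scaling, these 3 neighbours of Mir99a and Mir100 were brightest at D12.

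The neighbours of Mir99b were brightest at D4 instead. mmu-let-7e-5p had signals of 20.6, 125, 94.0 and 58.2 in the same order of days. mmu-miR-125a-5p had 6.28, 41.8, 24.96 and 15.1.

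The D12/D4 ratio was 1.63 ± 0.185 for mmu-let-7c-5p, 1.40 ± 0.187 for mmu-miR-125b-5p and 1.30 ± 0.146 for mmu-let-7a-5p. It was 0.751 ± 0.0806 for mmu-let-7e-5p and 0.597 ± 0.0834 for mmu-miR-125a-5p. Under the 4 scalings mmu-miR-125a-5p stayed between 0.633 and 0.774, but mmu-let-7e-5p was 0.795 with the spike-in RNAs, 0.973 and 0.958 with the 75th and 90th percentile and 1.00 after quantile normalization, so its ratio below 1 was not kept. None of the 5 passed 2-fold in either direction without scaling. mmu-let-7c-5p was above 2 with the 75th and 90th percentile, at 2.11 and 2.08, and after quantile normalization, at 2.29, but not with the spike-in RNAs, at 1.73. Under the 4 scalings mmu-miR-125b-5p was between 1.48 and 1.99 and mmu-let-7a-5p between 1.38 and 1.85.

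Between relatives of one family the common factor of an array again cancels. The log2 D12/D4 change of mmu-let-7c-5p exceeded that of mmu-let-7e-5p by 1.12 ± 0.23, and that of mmu-let-7a-5p did so by 0.80 ± 0.22. The change of mmu-miR-125b-5p exceeded that of mmu-miR-125a-5p by 1.23 ± 0.28. In each of the 3 families, the guide encoded beside Mir99b thus had the lower D12/D4 ratio.

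By total gene signal the members' D12/D4 ratios lay further from 1 than those of their neighbours, but not every gap was clear of its technical error. mmu-miR-99a-5p exceeded mmu-let-7c-5p by 0.49 ± 0.24 and mmu-miR-125b-5p by 0.71 ± 0.26 in log2 D12/D4. mmu-miR-100-5p exceeded mmu-let-7a-5p by 0.81 ± 0.31, with a second probe added to its total at D12. On its shared probe its D12/D4 ratio was 1.94 ± 0.363, against 1.30 ± 0.146 for mmu-let-7a-5p. mmu-miR-99b-5p lay below mmu-let-7e-5p, with a difference of -0.69 ± 0.26, and its difference from mmu-miR-125a-5p, -0.35 ± 0.29, was little more than 1 technical error.

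**Figure D4:**
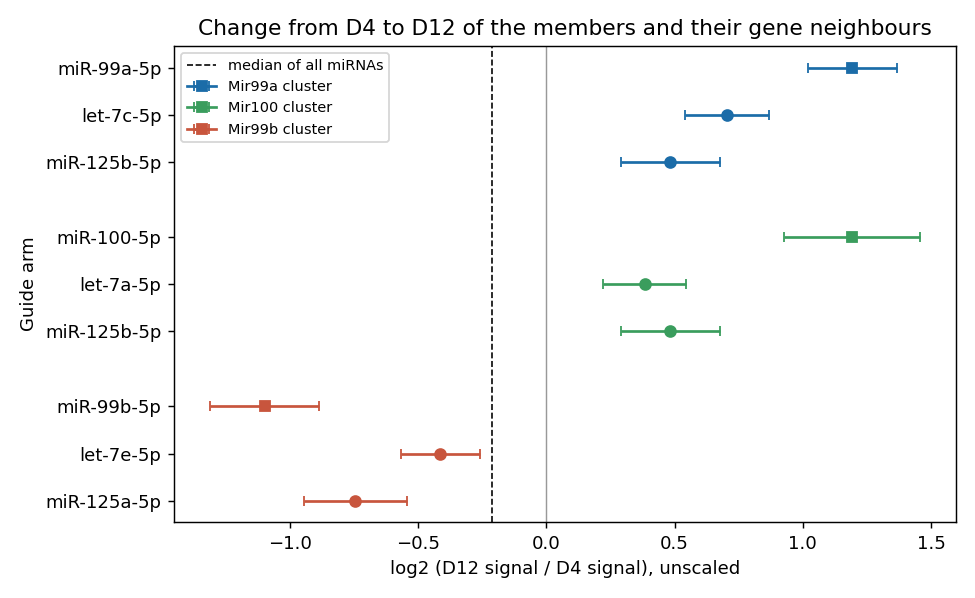
Log2 ratio of unscaled signals at D12 over D4 (horizontal axis) for the guides of the 3 gene clusters, with bars of 1 technical error. Squares are the members, circles their neighbours, and the dashed line is the median of all miRNAs, -0.21. mmu-miR-125b-5p is drawn in both clusters that encode it. The guides of the Mir99a and Mir100 clusters lie above 0 and those of the Mir99b cluster below it.

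Of 7 passenger arms of the neighbours on the array, mmu-miR-125a-3p alone was detected, and it did not follow its guide. It had 9.16 (0.947) on D0, 22.7 (1.65) on D4, 1.66 (0.538) on D12 and 2.75 (0.610) on D16. Its D12/D4 ratio was 0.0730, against 0.597 for the guide mmu-miR-125a-5p.

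The miRNAs with the most similar course were found by the Euclidean distance between log2 signals centred on their mean over the 4 days, among 282 others detected on all days. For mmu-miR-99a-5p they were miR-322-5p at 0.80, miR-26b-5p at 1.05 and miR-26a-5p at 1.26, of which the miR-26 pair is described as rising in adipogenesis. mmu-let-7c-5p was 5th and mmu-miR-99b-5p 62nd. For mmu-miR-99b-5p they were miR-214-3p at 0.28, its neighbour mmu-miR-125a-5p at 0.33 and miR-24-3p at 0.43, while mmu-let-7e-5p was 6th and mmu-miR-99a-5p 279th. Over D4, D12 and D16, among 349 others, mmu-miR-99a-5p and mmu-miR-100-5p were each the other's nearest by total gene signal, at a distance of 0.064, and mmu-miR-99b-5p was 307th from both. The total of mmu-miR-100-5p gained a second probe after D4. On the probes detected on both days the log2 D12/D4 changes of these guides differed by 0.24, against 0.0012 by total gene signal. The distance was not computed on shared probes, so the place of nearest may depend on the added probe. For mmu-miR-99b-5p on these 3 days mmu-miR-125a-5p was 13th and mmu-let-7e-5p 52nd, and none of the 3 nearest of the 4-day course was kept for mmu-miR-99a-5p or mmu-miR-99b-5p. By Pearson correlation over the 4 days mmu-miR-125a-5p was 5th and mmu-let-7e-5p 46th. These distances are descriptions over 4 or 3 arrays that share a slide.

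Of 10 miRNAs described as rising in adipogenesis, 6 were detected at D0 and all 10 at D12. The 6 detected at both had a median D12/D0 ratio of 17.0, from 8.50 to 22.6. From D4 to D12, where 9 were measured on both days, the median was 1.23 and none was above 2, with miR-26b-5p highest at 1.83 and miR-30a-5p and miR-30d-5p at 0.573 and 0.714. Of 7 mesenchymal miRNAs 5 were detected at D0 and 6 on each later day, with a median ratio of 6.61 at D12/D0 and 0.854 at D12/D4, and miR-145a-5p was detected on no day.

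All 3 red blood cell miRNAs rose from D4 to D12, with ratios from 4.07 to 5.42. Summed over them, the signal went from 9.40 on D0 to 468 on D4, 2524 on D12 and 1649 on D16, nearly all of it from miR-451a. Of 4 miRNAs of leukocytes, liver and serum, none was detected at D0, 1 at D4 and 3 on D12 and D16, with a summed signal of 83.2 at D12, and miR-150-5p was never detected. The part of these miRNAs' source in the result was not tested. The 3 miRNAs of striated muscle and the 2 of neurons were not detected on any array.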

How the data were processed

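The authors deposited Feature Extraction 11.0.1.1 output for each array as intensity values after local background subtraction, with arrays left unscaled. Per the file headers, the other columns used are flags, names and positions. The deposited total gene signal adds up those probes that exceed 3 times their error and is set to 0.1 if none does, and this rule was checked on the files. From it, ratios, differences of log2 ratios, distances and shares were computed with Python 3.11.15, numpy 2.4.6 and pandas 2.3.3, and plots with matplotlib 3.10.9. Technical errors were carried through as relative errors in quadrature. Ratios were left unscaled. The methods name a comparison with D0 and do not state whether the arrays were scaled before it. The study's own ratios of mmu-miR-99a-5p to D0 are lower than the unscaled ones, so they are on another scale. Ratios under 4 scalings are given beside the unscaled ones. Called means past 2-fold, and a miRNA not detected on one day enters no ratio.

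Groups are the 4 days, with 1 array each, so no test was made and precision is limited by the number of arrays. Alternatives were 4 scalings, other summaries over probes and spots, each side of the array, other thresholds, and normexp with an offset of 50 (limma 3.58.1, R 4.3.3) run on the median signal of each spot in place of the planned mean. The steps were tested on simulated data. The members and lists were chosen with earlier results of these data known. The miRNAs named are the members, their passenger arms, both arms of the neighbouring genes, miRNAs of the same seed, the 3 most alike in course and the marker lists. Sequences and positions are from RefSeq (GRCm38.p6); the array header names another build, and no coordinates of it are given. The other experiments of the study were not analysed here.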

Additional observations from a re-analysis of the deposited data

How the results depend on the processing

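No paired analysis was possible because each day has 1 array of mixed RNA. Of the D12/D0 ratio of mmu-miR-99a-5p, the value was 17.6 and 24.9 with the 75th and 90th percentile, 33.6 with the spike-in RNAs, 20.8 after quantile normalization, 39.7 and 39.2 with the mean and median spot signal, 26.8 on the right side of the array and 5.53 after normexp with an offset of 50. For mmu-miR-99b-5p the same settings gave 1.27, 1.80, 2.43, 1.65, 2.52, 2.31, 2.15 and 1.25, with 3.01 on the left side and 3.04 on the shared probe. The lower bound for mmu-miR-100-5p was 1.51, 2.14 and 2.89 with the percentiles and the spike-in RNAs. It has no value for quantile normalization or for the summaries over probes and spots, since it was not detected at D0. Of the 2 members with a measured ratio, 1 was above 2 at D12/D0 under both percentiles and quantile normalization. At D16/D0 it was 1 under these, at a threshold of 3-fold, and when 2 technical errors were required. At D12/D4 the count of members above 2 fell from 2 to 0 at 3-fold and with 2 technical errors required.

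The difference between mmu-miR-99a-5p and mmu-miR-99b-5p became 2.15 for log2 D12/D0 and 1.41 for log2 D12/D4 after normexp, whose added offset compresses dim signals by construction. That between mmu-miR-99a-5p and mmu-miR-100-5p for log2 D12/D4 became 0.34 with the median spot signal and 0.60 after normexp. The cause of the other shifts was not tested. After quantile normalization that difference was -0.04, within its technical error on the other side of 0, and the D12/D4 ratio of mmu-let-7e-5p was 1.00. No other value among the 109 alternatives changed its direction. For the main results, 44 alternatives stayed within their error or, for counts, within 1.5 times, and 35 moved further. For the others, 9 stayed and 21 moved. The alternatives for differences in D12/D4, for D4, D12 and D16 alone and for neighbours under scaling were chosen after seeing the data. Of the 3 miRNAs most like mmu-miR-99a-5p, 1 was kept when Pearson correlation replaced the distance, and for mmu-miR-99b-5p 1 was kept with Pearson correlation and 1 after quantile normalization. Over D4, D12 and D16 alone, 0 of the 3 were kept for either. Signals close to background at D0 limit every ratio to that day.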
